A study of Homo sapiens with 8 samples.

Results

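The genes of glucose uptake and glycolysis described here are 2 glucose transporters (SLC2A1 and SLC2A3) and 8 enzymes (HK2, PFKP, ALDOA, GAPDH, PGK1, ENO1, PKM and LDHA). They were chosen by name, with earlier results of these data known. The table rows used are those whose gene symbol equals the listed one, with the row of the highest mean where a symbol has several. Of the 10 listed genes, 9 had a row of their own among 33575 loci at day 0 and 34690 at day 3.5. SLC2A3 had none: the authors' tables hold it only in a locus merged with its near-identical neighbour SLC2A14. That joint locus is given beside the 9 members and is not counted with them.

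The cells were H9, an established human embryonic stem cell line, kept on soft gels of 400 Pa or stiff gels of 60 kPa in medium conditioned by feeder cells. Both gels were sampled undifferentiated (day 0) and at day 3.5 of mesoderm induction with bFGF, Activin, VEGF and BMP4, which gave 4 groups of 2 libraries. All groups come from 1 line, and the labels do not tell separate cultures from repeat libraries, so the deposited p-values measure a spread that may be technical. Each gene has 1 deposited level per group, in FPKM (fragments scaled to transcript length and to the mapped fragments of the library). Where 2 levels of a day stand together, the soft gel comes first. No value per library was analysed here, so the read depth is unknown and a level carries no SD. The labelled states were checked on marker genes. All 8 pluripotency markers reached 1 FPKM in every group, and their summed level was 1540.2 and 1678 FPKM on the soft and stiff gel at day 0 and 467 and 760.0 at day 3.5. Not all fell: ZFP42 was higher at day 3.5 on the soft gel (4.49, then 15.3) and the stiff gel (2.90, then 10.2). SOX2 was higher on the stiff gel only (116, then 164). At day 3.5, 1 of the 8 was higher on soft. LIN28A (131 and 239) and SOX2 (54.0 and 164) lay far apart between the gels, POU5F1 (114 and 122) did not. Of 7 mesoderm markers with a row, 1 reached 1 FPKM on either gel at day 0 and 7 did on either gel at day 3.5.

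Glycolysis splits glucose into pyruvate in the cytosol. Facilitative carriers of the SLC2A (GLUT) family bring glucose in, hexokinase and phosphofructokinase spend ATP to trap and commit it, and the enzymes from GAPDH to pyruvate kinase return ATP and NADH. Lactate dehydrogenase regenerates NAD+ by turning pyruvate into lactate, which leaves through the SLC16A (MCT) carriers. Primed human pluripotent stem cells are known for a high glycolytic flux, and many genes of the pathway are targets of the hypoxia-inducible factors (HIF) and of MYC.

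None of the 9 members was called between soft and stiff gel on either day. Side by side across the days, SLC2A1, PKM and LDHA lay 2.88 to 3.42 times higher at day 3.5 than at day 0 on the soft gel. GAPDH, ENO1 and ALDOA stayed within 1.17 times between their lowest and highest group. PKM, SLC2A1 and the joint SLC2A3 locus had their highest levels on the soft gel at day 3.5, without passing the test against the stiff gel.

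**Figure D1:**
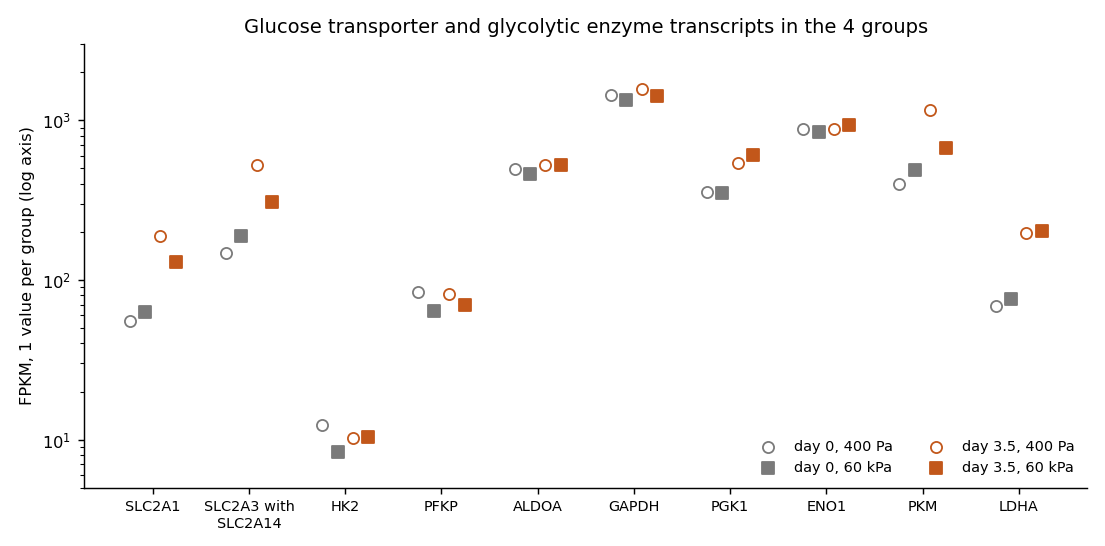
FPKM of the members in the 4 groups, 1 deposited value per group, on a log axis; open circles are 400 Pa, filled squares 60 kPa, grey day 0 and orange day 3.5. SLC2A1, PKM, LDHA and the joint locus of SLC2A3 and SLC2A14 lie higher at day 3.5, while the levels of GAPDH, ENO1, PFKP and HK2 overlap across the days.

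Of the transporters, SLC2A1 encodes GLUT1, the basal glucose carrier of most dividing cells, at hg19 chr1:43390487-43424530. Before induction its level was 54.9 FPKM (soft) and 63.3 FPKM (stiff), beside 188 (soft) and 129 (stiff) at day 3.5. Both day 3.5 groups lay above both day 0 groups, and the order of the gels was opposite on the 2 days. The ratio of soft over stiff gel was 0.868 at day 0 (approximate 95% interval 0.461 to 1.63) and 1.45 at day 3.5 (0.620 to 3.39), with p = 0.431 and p = 0.106 in the authors' deposited tables. SLC2A3 encodes GLUT3, a high-affinity carrier of neurons and early embryos. Its locus shared with SLC2A14 (hg19 chr12:7965108-8088871) had 148 FPKM (soft) and 189 FPKM (stiff) before induction and 525 (soft) and 306 (stiff) afterwards. The ratio was 0.783 (0.332 to 1.85) and then 1.71 (0.591 to 4.96). The reads of the 2 genes in this locus cannot be told apart, so the pattern of SLC2A1 is not shown for SLC2A3 alone.

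Among the enzymes of the ATP-spending steps, HK2, the hexokinase that binds the outer mitochondrial membrane and traps glucose as glucose 6-phosphate, had the lowest level of the 9 members in every group (hg19 chr2:75059670-75120713). Its level was 12.3 FPKM (soft) and 8.32 FPKM (stiff) before induction and 10.3 and 10.4 FPKM at day 3.5, so the days overlap. A second HK2 row with the same span was lower, with 4.98 and 4.91 FPKM before and 5.81 and 7.69 FPKM after induction, soft gel first. PFKP, the platelet-type phosphofructokinase of the committing step (hg19 chr10:3108525-3215003), had 83.5 FPKM (soft) and 64.1 FPKM (stiff) before induction and 82.0 and 69.5 FPKM at day 3.5. Its level was higher on the soft gel on both days, with ratios of 1.30 and 1.18 and p = 0.409 and p = 0.587 in the authors' deposited tables. ALDOA, the aldolase that cuts fructose bisphosphate into 2 triose phosphates (hg19 chr16:30064411-30081778), had 492 FPKM (soft) and 459 FPKM (stiff) before induction and 522 and 524 FPKM afterwards. Its 4 values span 1.14 times from lowest to highest.

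Among the enzymes of the ATP-yielding steps, GAPDH oxidises glyceraldehyde 3-phosphate and is widely used as a reference transcript. It had the highest level of the members in every group (hg19 chr12:6643093-6665239), with 1439.8 FPKM (soft) and 1331 FPKM (stiff) before induction and 1559 and 1421 FPKM at day 3.5. The soft gel was higher by 1.08 times at day 0 and by 1.10 times at day 3.5, with p = 0.676 and p = 0.693 in the authors' deposited tables. ENO1, the alpha-enolase (hg19 chr1:8920869-8939953), had 881 and 845 FPKM and then 880.3 and 931 FPKM, soft gel first, the narrowest range of the members at 1.10 times. PGK1, which makes the first ATP of the pathway (hg19 chrX:77320685-77395203), had 354 FPKM (soft) and 350.0 FPKM (stiff) before induction and 539 and 606 FPKM afterwards. Its levels thus lay apart between the days by 1.52 times on the soft gel and 1.73 times on the stiff gel, and close together between the gels.

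PKM, the pyruvate kinase gene whose splice forms include the M2 enzyme of embryonic and tumour cells, lay at hg19 chr15:72490988-72524164. Before induction its level was 397 FPKM (soft) and 489 FPKM (stiff), beside 1157 (soft) and 674 (stiff) at day 3.5. The soft gel was thus lower at day 0 (ratio 0.812, 95% interval 0.453 to 1.46) and higher at day 3.5 (1.72, 0.795 to 3.70). This was the lowest p among the members, 0.0390 at day 3.5 in the authors' deposited table, and its q there was 0.776. The tables give 1 value per gene, so the splice forms of PKM cannot be told apart. At day 3.5 the summed levels of lineage markers also lay apart between the gels. On soft and stiff gel, the summed level of 6 amnion and trophoblast markers was 210.4 and 39.8 FPKM, with 6 of 6 at 1 FPKM or more on each. That of 7 mesoderm markers was 116 and 45.8 (7 of 7 on each), and that of 6 neuroectoderm markers 112 and 336 (5 of 6 on each, SOX1 near 0). The 6 fibroblast markers summed to 254 and 67.1 FPKM (6 and 5 of 6), and 4 endothelial and blood markers to 2.19 and 0.579 (1 and 0 of 4). Single markers weigh heavily in these sums. Of the 6 fibroblast markers 4 were higher on soft, led by LUM (136 and 4.69), while COL1A2 (18.2 and 24.2) and THY1 (25.5 and 26.8) were not. All 7 mesoderm markers were higher on soft, HAND1 by far (53.8 and 6.07), MIXL1 (7.60 and 6.39) and TBX6 (2.13 and 1.94) by little. The part of all these markers in the levels of PKM and SLC2A1 was not tested. In these bulk libraries fewer cells of a type and less RNA per cell cannot be told apart.

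LDHA, the lactate dehydrogenase subunit that favours lactate formation (hg19 chr11:18415935-18429972), lay apart between the days and close together between the gels. Before induction its level was 68.5 FPKM (soft) and 76.3 FPKM (stiff), beside 197 (soft) and 202 (stiff) at day 3.5. The 2 groups of each day lay next to each other and the days did not overlap. The ratio of soft over stiff gel was 0.899 at day 0 (0.571 to 1.41) and 0.979 at day 3.5 (0.550 to 1.74). These intervals are wide, so equal levels on the gels are not shown.

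Within each day soft and stiff gel were compared. In the authors' deposited comparison, made with Cufflinks, 0 of 9 members were called at q below 0.05 at day 0, against 0.139% of all 17315 loci tested. At day 3.5 it was again 0 of 9, against 1.33% of 18225 loci. With so low a share of calls over all loci, 0 calls among 9 genes is close to the background. With p below 0.05 before adjustment, the authors' deposited tables held 0 of 9 members at day 0 (1.86% of all loci) and 1 of 9, PKM, at day 3.5 (5.93%). The change on the log2(FPKM + 1) scale, soft minus stiff, had a median of 0.06 over the members at day 0, with 6 of 9 above 0. Over all loci it was 0.02, with 53.9% above 0. At day 3.5 the median was -0.01, with 4 of 9 above 0, beside 0.02 over all loci. The 6 of 9 at day 0 rest on small values: with levels rescaled without the 10 loci of highest FPKM, PGK1, ENO1 and the median (-0.03) were on the other side of 0.

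**Figure D2:**
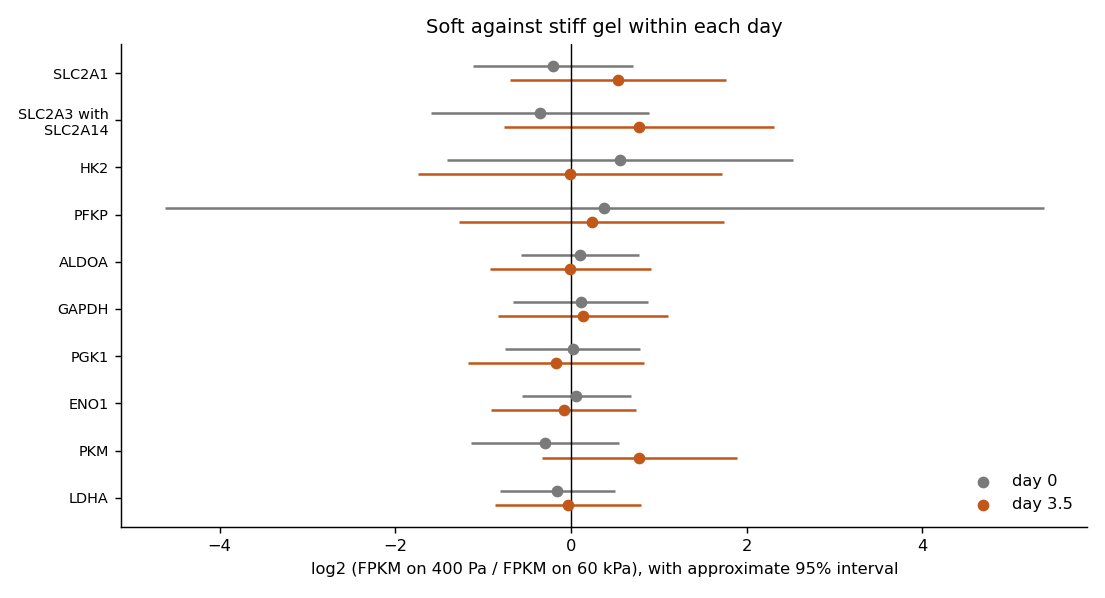
Log2 ratio of FPKM on 400 Pa over 60 kPa for each member at day 0 (grey) and day 3.5 (orange); bars are approximate 95% intervals from the deposited ratio and statistic. Every bar crosses 0, and the bar of PFKP at day 0 is the widest, with an SE of 2.55.

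The intervals above use the standard error implied by the deposited ratio and its statistic. These errors had a median of 0.39 log2 units at day 0 and 0.51 at day 3.5 over the members. They are wide next to the deposited p-values: for 9 of 9 members on both days, a normal p from the statistic was above the p in the authors' deposited tables. For PKM at day 3.5 it was 0.169. With an error taken from the deposited p-value, the 95% interval of PKM at day 3.5 was 0.04 to 1.52 log2 units, which leaves out 0. For PFKP at day 0 the statistic gave 0.881 where the authors' deposited table has 0.409.

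The difference between the 2 stiffness contrasts was tested across the 15293 loci tested on both days. Adjusted for all loci, 0 of 9 members passed, against 0.0719% of loci. The largest difference among the members was that of PKM, whose log2 ratio of soft over stiff gel was 1.08 higher at day 3.5 than at day 0 (SE 0.71, 95% interval -0.31 to 2.47). Its Benjamini-Hochberg adjusted p was 0.99998. SLC2A1 followed with 0.74 (SE 0.78, interval -0.79 to 2.27), and LDHA had 0.12 (SE 0.54). With errors taken from the deposited p-values in place of the statistics, the unadjusted p of PKM was 0.0243 and its adjusted p was 0.99993.

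For day 3.5 against day 0, the tables of the 2 days were made separately and hold no comparison between them, so levels are set side by side without a test. All 31208 locus identifiers that both tables hold have the same gene name and span in each. Of the 9 members, 3 lay higher at day 3.5 by at least 1 log2 unit of FPKM + 1 on the soft gel (SLC2A1, PKM and LDHA) and none lower. Over all 19933 loci compared, 8.57% lay that much higher and 6.99% that much lower. On the stiff gel 2 of 9 members lay higher by that amount (SLC2A1 and LDHA) and none lower, beside 6.52% and 4.71% of all loci. With levels rescaled without the 10 loci of highest FPKM, SLC2A1 on the stiff gel was at 0.92 and no longer past this limit. The median difference over the members was 0.11 on the soft gel and 0.29 on the stiff gel, beside -0.03 and 0.02 over all loci. The same rescaling gave 0.04 and 0.19, and adding the second HK2 row gave 0.42 on the stiff gel.

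The 3 genes past that limit on the soft gel had different profiles. SLC2A1 was 3.42 times higher on the soft gel and 2.04 times on the stiff gel, and 2.84% and 6.19% of all loci had a larger upward difference. LDHA was 2.88 and 2.64 times higher, much alike on both gels, with 3.82% and 2.87% of loci above it. PKM was 2.91 times higher on the soft gel and 1.38 times on the stiff gel, where 21.5% of loci lay above it. The joint SLC2A3 and SLC2A14 locus had ratios of 3.55 and 1.62, an order of the gels like that of PKM. For GAPDH 40.5% and 43.8% of loci had a larger upward difference, which places it near the middle of all loci.

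The order of levels within a group changed little. GAPDH was first and HK2 last of the 9 in all 4 groups, and ENO1 was second in 3 of them. FPKM is per length, so levels of different genes can be set side by side. PKM went from the fourth place on the soft gel at day 0 to the second at day 3.5, ahead of ENO1. SLC2A1 and LDHA lay above PFKP in both day 3.5 groups, and LDHA already did on the stiff gel at day 0 (76.3 against 64.1 FPKM). Without values per library, whether neighbours in this order differ was not tested. In profiles over the 4 groups, each centred on its own mean log2(FPKM + 1), ENO1 and ALDOA were nearest to each other (Euclidean distance 0.09 log2 units), and GAPDH was nearest to ALDOA (0.11). SLC2A1 and LDHA were nearest to each other (0.40), PKM was nearest to SLC2A1 (0.43), and HK2 and PFKP paired (0.20). Of 6743 other loci with at least 10 FPKM in all groups, CERS5 and HDAC1 lay nearest to the median profile of the members (0.04 each), followed by HIST1H2BL, C9orf69 and TNKS (0.05 each). That profile is nearly flat, and 4 points are few.

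The members are the listed forms of their steps, and their partners put the levels in context. LDHB, the subunit that favours pyruvate formation, was far above LDHA in every group, with 987 and 971 FPKM before and 887 and 908 FPKM after induction. LDHA therefore made up 6.49% (400 Pa) and 7.28% (60 kPa) of the summed FPKM of both genes at day 0, and 18.2% on each gel at day 3.5. HK1, the constitutive hexokinase, was above HK2 in every group, by 1.87 to 4.24 times. Against the sum of both HK2 rows it was 1.07 to 2.67 times higher, the lowest on the stiff gel at day 3.5. HK1 was the only isoenzyme partner with an unadjusted p below 0.05, 0.0449 at day 0 in the authors' deposited table, with 23.6 FPKM (soft) and 35.3 FPKM (stiff). At day 3.5 it had 30.04 and 19.4, the other way round, with p = 0.131 in the authors' deposited table. PFKP held the highest share of the 3 phosphofructokinase genes in every group, from 54.8% on the soft gel at day 0 to 44.6% on the stiff gel at day 3.5. PFKL, the liver form, was at 26.4 and 24.96 FPKM and then 47.2 and 37.2. PFKM, the muscle form, was between 42.3 and 50.0. ALDOC and ENO3 made up at most 6.35% and 1.57% of their pairs with ALDOA and ENO1. PGAM1, the mutase between PGK1 and ENO1, had 74.99 and 72.1 FPKM before and 88.2 and 83.8 FPKM after induction. TPI1 and ENO2 share 1 merged locus with LRRC23 (577 and 449 FPKM, then 768 and 759), and GPI shares one with PDCD2L (178 and 170.4, then 104 and 117), so neither gives a level of 1 enzyme.

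**Figure D3:**
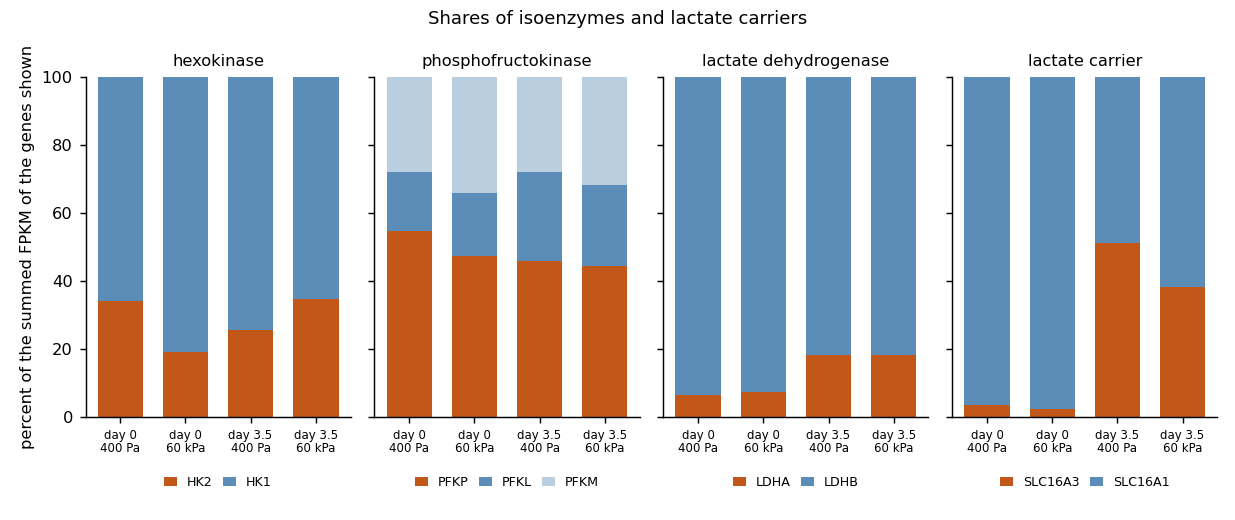
Share of each gene in the summed FPKM of its set (stacked, in percent) for hexokinases, phosphofructokinases, lactate dehydrogenases and lactate carriers in the 4 groups. LDHA goes from 6.49% and 7.28% at day 0 to 18.2% at day 3.5, and SLC16A3 from 3.43% and 2.22% to 51.2% and 38.1%.

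Of the lactate carriers, SLC16A3 encodes MCT4, a lactate exporter of glycolytic cells, and is named here after its values were seen. It had 7.73 FPKM (soft) and 5.21 FPKM (stiff) before induction and 172 and 106 FPKM afterwards, 22.3 times higher on the soft gel and 20.4 times on the stiff gel. Between the gels it did not pass, with p = 0.440 at day 3.5 in the authors' deposited table. SLC16A1, the carrier MCT1, went the other way, from 217 and 230 FPKM to 164 and 173. BSG, the chaperone basigin that brings both carriers to the membrane, was at 234 and 215 and then at 306 and 287. SLC16A3 thus held 3.43% and 2.22% of the summed FPKM of both carriers at day 0 and 51.2% and 38.1% at day 3.5.

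The lists of 119 other genes covered other carriers and enzymes, lactate, fructose bisphosphate control, pyruvate entry, the pentose phosphate, glycogen and serine branches, regulators and other HIF targets. Of these genes 111 had a row of their own and 93 were tested on each day. None was called at day 0, with 3 of 93 at an unadjusted p below 0.05, beside 1.86% of all loci. At day 3.5, the authors' deposited table gave 1 of 93 as called, higher on soft, and none higher on stiff. It held 7 of 93 at an unadjusted p below 0.05, beside 5.93% of all loci. The share of 1 in 93 is close to the 1.33% of all loci. The called gene was EPAS1, which encodes HIF-2 alpha, with 33.5 FPKM (soft) and 6.93 FPKM (stiff; ratio 4.83, log2 ratio 2.27 with SE 0.98, q = 0.00783 in the authors' deposited table). At day 0 it was at 1.45 and 1.02 FPKM. HIF1A, in a locus merged with SNAPC1, was at 149 and 129 and then at 126 and 128.

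Across the days, among the pathway lists (cell type markers aside), HIF targets outside glycolysis had the largest share of genes higher at day 3.5 by at least 1 log2 unit. The lists were chosen with earlier results of these data known, so the rank of these HIF targets is only a description. On the soft gel 10 of 15 lay that much higher (8.57% of all loci) and 1 lower. On the stiff gel 9 of 15 did (6.52%), with 1 lower. The medians were 1.38 and 1.08, and 8 genes lay that much higher on both gels. Loci were compared if they reached 1 FPKM in any group. Among the 10, CA12 (0.67 and 0.61 FPKM, then 2.67 and 0.94) and LOX (0.56 and 0.80, then 4.01 and 1.09) did so only at day 3.5. CA9, below 1 FPKM in every group, was left out. BNIP3L, a mitophagy receptor, had 37.0 and 37.1 FPKM before and 84.96 and 79.4 FPKM after induction. DDIT4, an inhibitor of mTORC1, was at 23.5 and 17.3 and then at 75.5 and 78.6. P4HA1, a collagen prolyl hydroxylase, was at 22.9 and 28.7 and then at 67.2 and 60.8. The gene on the lower side was ADM (38.7 and 41.9, then 6.85 and 5.25 FPKM), named after its values were seen. Between the gels at day 3.5, 13 of 15 were higher on the soft gel (median 0.28), beside 51.9% of all loci (median 0.02). This count depends on the list chosen: EGLN1 and EGLN3, listed as regulators, are not in it. EGLN3 was lower on the soft gel at day 3.5 (25.1 and 20.8 FPKM, then 14.7 and 31.8). Its p at day 3.5 was 0.0259 and its q 0.632 in the authors' deposited table. EGLN1 was higher on soft (4.97 and 5.64, then 15.98 and 8.84). Both are named after their values were seen. Of the 13 regulators tested at day 3.5, 6 were higher on soft (median -0.03). Of the 15 listed HIF targets, 2 had an unadjusted p below 0.05 in the authors' deposited table, beside 5.93% of all loci. None was called, beside 1.33% of all loci.

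**Figure D4:**
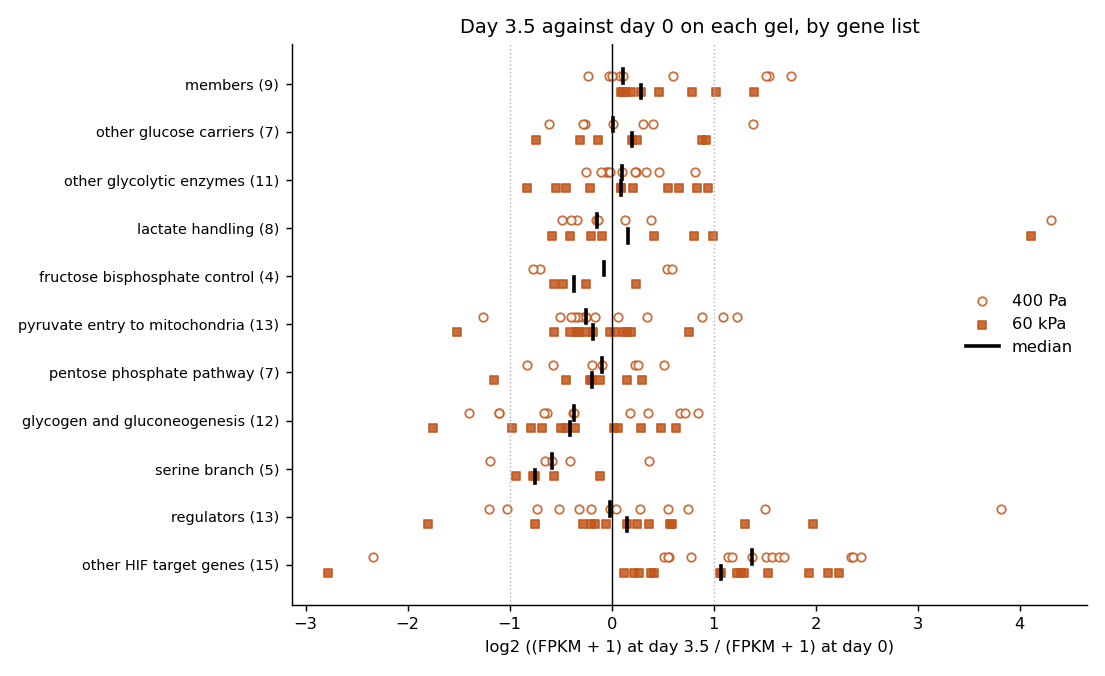
Log2 difference of FPKM + 1 between day 3.5 and day 0 for each gene of each list on 400 Pa (open circles) and 60 kPa (filled squares), with list medians as black bars and the number of genes in brackets; dotted lines mark 1 log2 unit. The list of other HIF targets has medians of 1.38 and 1.08, the members 0.11 and 0.29, and SLC16A3 is the point at 4.31 and 4.11.

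Of the genes of pyruvate entry into mitochondria, PDHA1 and PDHB, subunits of pyruvate dehydrogenase, had 159 and 157 FPKM and 90.0 and 92.8 FPKM before induction, and 130.3 and 126 FPKM and 71.2 and 73.1 FPKM afterwards. PDK1, the kinase that inhibits this complex, had 32.2 and 35.9 FPKM before and 76.8 and 61.6 FPKM after induction. Of the genes of fructose bisphosphate control, PFKFB4 was in a locus merged with UCN2, at 7.28 and 5.49 FPKM and then at 33.8 and 30.7. PFKFB3 was at 2.38 and 3.35 and then at 3.91 and 4.13. LIN28A, an RNA-binding protein of pluripotent cells that acts on metabolic mRNAs, was at 304 and 249 and then at 131 and 239 FPKM, and its q at day 3.5 was 0.165 in the authors' deposited table. LIN28B was at 77.3 and 74.8 and then at 61.8 and 64.8.

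The promoters of the 3 members that lay higher at day 3.5 by at least 1 log2 unit on the soft gel are shown with that of ENO1, the member with the narrowest range, because HIF factors bind DNA around a core of ACGTG or GCGTG. The sequences are the 250 bases upstream of a transcript start from RefSeq (GRCh38.p14). The table used matched 9 of the 10 genes, with 16 windows, since some genes have several starts. They lie at chr1:42958869-42959118 on the minus strand (SLC2A1), chr15:72231191-72231440 on the minus strand (PKM), chr11:18394313-18394562 on the plus strand (LDHA, the first of 2 starts) and chr1:8878687-8878936 on the minus strand (ENO1). Each is written 5′ to 3′ along the gene, with either motif on either strand in capitals.
SLC2A1: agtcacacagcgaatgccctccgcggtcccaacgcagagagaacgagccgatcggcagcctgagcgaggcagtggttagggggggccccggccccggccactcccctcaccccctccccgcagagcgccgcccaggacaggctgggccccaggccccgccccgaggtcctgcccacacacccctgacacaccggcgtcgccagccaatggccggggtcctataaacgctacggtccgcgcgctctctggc
PKM: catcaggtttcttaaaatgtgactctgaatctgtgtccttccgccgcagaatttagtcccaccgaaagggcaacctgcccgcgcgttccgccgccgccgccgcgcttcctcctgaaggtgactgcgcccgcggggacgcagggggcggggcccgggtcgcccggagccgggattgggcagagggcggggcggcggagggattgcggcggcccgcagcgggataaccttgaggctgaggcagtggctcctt
LDHA: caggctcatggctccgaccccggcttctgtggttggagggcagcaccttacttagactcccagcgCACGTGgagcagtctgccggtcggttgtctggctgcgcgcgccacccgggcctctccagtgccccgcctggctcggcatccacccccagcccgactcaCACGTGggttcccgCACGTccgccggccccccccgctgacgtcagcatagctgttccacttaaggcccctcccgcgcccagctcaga
ENO1: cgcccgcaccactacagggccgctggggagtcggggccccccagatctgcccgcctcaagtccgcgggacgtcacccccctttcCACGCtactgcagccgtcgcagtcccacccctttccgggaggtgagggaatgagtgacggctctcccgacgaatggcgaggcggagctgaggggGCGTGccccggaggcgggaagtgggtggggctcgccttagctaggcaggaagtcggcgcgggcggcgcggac

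The first LDHA window held 5 matches of ACGTG, counting both strands, so that a CACGTG is 1 match on each strand. The window of the second LDHA start held no ACGTG and 1 match of GCGTG. The windows of SLC2A1 and PKM held neither motif, and that of ENO1 held 2 matches of GCGTG. Other members, which lay below 1 log2 unit on the soft gel, also held ACGTG. Per window, HK2 had 2 and 4 matches, PFKP 0, 0, 1 and 0, ALDOA 1, 2 and 1, GAPDH 2 and PGK1 2. Among all 35116 RefSeq windows of this length, 18.5% held ACGTG, 32.2% held GCGTG and 43.2% held either. The members had ACGTG in 9 of 16 windows, GCGTG in 6 and either in 12. These windows come from 9 genes, and the first and second windows of ALDOA overlap, so they are not independent. The windows were not matched for base composition. A match is only a description of the sequence, and binding was not measured.

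Copies and neighbours of the members limit some levels. GENCODE release 29 names 62 GAPDH pseudogenes, of which 29 had a row at day 0 and 27 at day 3.5. Their summed level was 699 and 623 FPKM at day 0 and 596 and 599.8 at day 3.5, mostly GAPDHP1, whose highest level was 612 and 515 on the 2 days. How the authors' counting divided reads between GAPDH and these copies is not given in the sources used here, so the level of GAPDH is uncertain. The pseudogenes of PKM summed to 21.2 and 20.8 FPKM and then 54.4 and 35.1, and those of LDHA to 9.85 and 11.6 and then 22.4 and 24.5. The GAPDH locus spans 22.1 kb in the tables, while the gene is 4.4 kb long in that annotation, so the locus may hold other transcripts. The same limit applies to ALDOA (17.4 kb against 6.3 kb) and PFKP (106.5 kb against 71.4 kb). Of the 9 members, 6 overlap a gene on the opposite strand there (SLC2A1, HK2, ALDOA, GAPDH, PGK1 and ENO1), and the strand setting of the counting is not given in the sources used here.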

How the data were processed

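RNA of 8 libraries in 4 groups of 2 was sequenced. The authors' deposited tables, 1 per day, give per locus 1 FPKM for each group, for which the submitters' processing notes name Cufflinks and hg19. Not given in the sources used here: versions, aligner, annotation and pooling. Each deposited row adds a log2 ratio of stiff over soft gel (turned round here), a statistic, which is a score with no fixed range, and its p-value and q-value. Depth is unknown, and no interval from counts is possible.

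Calls are the deposited q-values below 0.05, over loci the authors tested with at least 1 FPKM in a group, with 1 row kept per symbol. A change is a difference of log2(FPKM + 1). Ratios are of FPKM without pseudocount. Errors are the deposited log2 ratio divided by its statistic, and intervals are 1.96 errors to each side. The difference of the days' contrasts used both errors (normal approximation) with Benjamini-Hochberg adjustment over all loci, and was tested on simulated data. The simulated differences were far larger than those of the members, large errors were capped and the noise was normal. Recovery of differences of the members' size was therefore not tested. Table starts count from 0 and are written 1-based: with that reading 4707 spans equal the gene length in GENCODE release 29, against 139 otherwise. The members and lists were chosen with earlier results of these data known.

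Named genes are all members, their isoenzyme partners, called genes of the lists and the 3 genes of highest mean FPKM per list; others are marked. Alternatives were other pseudocounts, FPKM minimums, thresholds, adjustment, centring, rescaling, summed rows and, chosen after seeing the data, errors from the p-values and added pseudogene rows. Computation ran under Python 3.11.15 with scipy 1.17.1 (statistics), numpy 2.4.6 and pandas 2.3.3 (tables) and matplotlib 3.10.9 (plots).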

Additional observations from a re-analysis of the deposited data

How the results depend on the processing

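The count of called members stayed at 0 on both days, and that of called pathway genes at 0 and 1, under every FPKM minimum, threshold and adjustment tried. At q below 0.01 the deposited tables held 0 loci at day 0 (24 at 0.05) and 128 at day 3.5 (243 at 0.05). The day 0 change of PGK1 was reversed to -0.0076 when centred on the median gene and to -0.078 when rescaled without the 10 loci of highest FPKM, which turned that of ENO1 to -0.035. These values are far within their errors, and the other 213 alternatives of single members kept their direction or moved less than the smallest error. The count of loci whose contrast differed between days was 11, and 48 with errors from the deposited p-values, with 0 members in both. No paired analysis was possible because the tables hold 1 value per group and no replicate, and for the same reason no library was left out. The depth behind any level is unknown.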

Other observations

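Around glycolysis, with the soft gel given first in each pair, branches that use its intermediates are given here, again without a test between the days. Of the 5 genes of the serine branch, 1 lay higher at day 3.5 on the soft gel and 0 on the stiff gel, in a setting where 48.0% (soft) and 51.2% (stiff) of all loci lay higher. The median differences were -0.59 (soft) and -0.75 (stiff) log2 units. PHGDH, the first enzyme of serine synthesis, had 211 FPKM (soft) and 206 FPKM (stiff) before induction and 134 and 120.4 FPKM afterwards. PSAT1, the aminotransferase after it, was at 145 and 121 and then at 62.7 and 81.5, and SHMT2, which passes serine carbon to folate, at 183 and 185 and then at 121 and 110.0.

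Of the other carriers, SLC2A8 had 13.3 and 16.05 FPKM and then 10.8 and 9.17, and SLC2A13 had 5.66 and 7.66 and then 16.4 and 14.98. PFKFB2, a kinase that makes the activator of phosphofructokinase, had 6.36 and 7.51 FPKM and then 3.54 and 5.10. In the pentose phosphate pathway TALDO1, the transaldolase, had 388 and 439 FPKM and then 363.5 and 322, and TKT, the transketolase, was at 403 and 522 FPKM and then at 226 and 234, while PGD was at 145 and 150.3 and then at 126 and 132. UGP2, which makes the UDP-glucose for glycogen, was at 513 and 509 FPKM and then at 194 and 151. PGM1 had 22.04 and 21.999 FPKM and then 40.4 and 27.0, and PCK2 had 28.2 and 34.7 and then 21.4 and 21.2. Between the gels at day 3.5, PGM2 had the lowest p of the glycogen list, at 36.7 FPKM on 400 Pa and 18.7 on 60 kPa (p = 0.00485 and q = 0.214 in the authors' deposited table), and is named after its values were seen. MYC had 11.4 FPKM (soft) and 16.6 FPKM (stiff) before induction and 7.65 and 4.06 FPKM afterwards, with p = 0.0466 and p = 0.0339 in the authors' deposited tables and no call on either day. It too is named after its values were seen.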
